A study of Mus musculus with 16 samples.

Results

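The insulin signalling and glucose uptake genes followed here were 10 genes of skeletal muscle, namely Insr, Irs1, Irs2, Pik3r1, Akt1, Akt2, Gsk3b, Tbc1d4, Slc2a4, and Cav3. They were chosen by name, with earlier results of these data known. All rows of the mRNA table with these gene names were taken, which were 59 of 82388 transcripts and 10 of 23235 gene names. The table came from RNA sequencing of skeletal muscle of 16 male C57BL/6J mice, with 4 mice in each of 4 groups, and the mice were 6 weeks old at the start. The control group received a normal diet. The HFD group received a high-fat diet with 60% fat for 8 weeks. The HFD + RSV group and the HFD + metformin group received the same diet and were then treated with resveratrol (RSV), a plant polyphenol, or with metformin, a glucose-lowering drug, for 6 weeks. The labels name no transgene or deletion in any group. The study was set up to ask how RSV acts on muscle insulin resistance, and its methods injected some mice of each group with insulin before muscle was taken. Which of the sequenced mice were injected is not given in the sources used here, so that an effect of injected insulin cannot be told apart from the differences between mice.

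Insulin binds the receptor encoded by Insr, which phosphorylates the docking proteins encoded by Irs1 and Irs2. These recruit phosphoinositide 3-kinase, whose regulatory subunit p85 alpha is encoded by Pik3r1, and the lipid it makes activates the kinases encoded by Akt1 and Akt2. Akt inhibits the glycogen synthase kinase encoded by Gsk3b and the Rab GTPase-activating protein AS160 encoded by Tbc1d4, and the second step lets vesicles with the glucose transporter GLUT4, encoded by Slc2a4, reach the surface of the muscle fibre. Cav3 encodes caveolin-3, the coat protein of muscle caveolae. Much of this pathway is regulated by phosphorylation and by protein traffic, which RNA sequencing does not measure.

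Sums of 8 striated muscle markers such as Ckm and Acta1 lay between 143000 and 272000 on the counts-per-million scale (CPM) in the 16 mice, and sums of 5 retina markers did not exceed 2.91 CPM, which was checked because the extraction note in the labels names retinas while the labelled tissue is skeletal muscle. Libraries held 17625909 to 29761026 mRNA counts. The summed level of 8 slow fibre markers was 103, 2420, 1060, and 1590 CPM in control mice 1 to 4 and 106 to 289 CPM in the HFD group, 141 to 1450 CPM in the HFD + RSV group, and 209 to 560 CPM in the HFD + metformin group. The summed level of 8 adipocyte markers was 1080 to 5120 CPM in the control group, 208 to 1030 CPM in the HFD group, 301 to 1220 CPM in the HFD + RSV group, and 211 to 4470 CPM in the HFD + metformin group, with control mouse 3 and HFD + metformin mouse 3 far above the rest. No slow fibre or adipocyte marker was at 0 in all mice, and fewer cells of a type and less RNA per cell cannot be told apart in whole muscle. The titles of all 4 HFD mice share 1 leading number and those of the other groups do not share it, so that whatever this number marks cannot be told apart from the diet. P values below test differences between groups against the variation between mice, and do not account for whatever this number marks.

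The promoters of the genes for the receptor substrates are shown because Irs1 was the member that differed and Irs2 is its closest counterpart, and both held the same pair of short motifs. The sequences are from RefSeq (build GRCm38.p6) and run 5′ to 3′ on the strand of the gene. Each spans 250 bases before to 50 bases after the RefSeq start. For Irs2 the whole window lies upstream of the annotated start of the transcript that was counted (chr8:11008458). Capitals mark the E-box CACGTG and the 7-base motif CAAAACA, which was searched on both strands and appears here as its reverse complement.
Irs1 promoter, chr1:82291390-82291689, minus strand: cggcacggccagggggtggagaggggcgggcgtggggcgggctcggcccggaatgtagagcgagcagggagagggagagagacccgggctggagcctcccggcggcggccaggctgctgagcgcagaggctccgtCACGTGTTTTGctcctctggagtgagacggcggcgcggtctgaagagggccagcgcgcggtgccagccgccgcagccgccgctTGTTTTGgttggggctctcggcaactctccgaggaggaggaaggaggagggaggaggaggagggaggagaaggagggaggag
Irs2 promoter, chr8:11008880-11009179, minus strand: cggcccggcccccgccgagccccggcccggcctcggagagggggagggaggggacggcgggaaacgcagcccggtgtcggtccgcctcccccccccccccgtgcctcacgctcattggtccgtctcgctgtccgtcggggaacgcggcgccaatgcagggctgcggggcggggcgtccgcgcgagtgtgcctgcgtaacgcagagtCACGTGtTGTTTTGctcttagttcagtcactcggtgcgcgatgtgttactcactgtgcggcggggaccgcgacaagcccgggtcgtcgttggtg
In the Irs1 window the E-box starts at base 136 and CAAAACA matches start at bases 140 and 219, so that the E-box and the first CAAAACA match overlap. In the Irs2 window the E-box starts at base 207 and CAAAACA at base 214, with 1 base between them. Of 32851 promoter windows of 300 bases, 7.15% held CACGTG, 6.28% held CAAAACA, and 0.408% held both. GC content was 71.3% for Irs1 and 72.0% for Irs2, against a median of 52.7% over all windows. The windows are shown because both hold the pair, and the background was not matched for GC content. These shares therefore do not measure how unusual the pair is. Neither window held the FOXO core GTAAACA on either strand, which was found in 3.65% of windows. Promoter windows were found for 8 of the 10 members, 13 windows in all, and among the other members 1 Akt1 window held GTAAACA and none held CACGTG or CAAAACA. These matches describe letters and not binding.

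All 10 genes are annotated as protein-coding. On GRCm38, Insr lies at chr8:3122061-3279617, Irs1 at chr1:82233101-82291416, Irs2 at chr8:10984681-11008458, Pik3r1 at chr13:101680563-101768217, Akt1 at chr12:112653821-112674884, Tbc1d4 at chr14:101442360-101609191, and Slc2a4 at chr11:69942539-69948188, all on the minus strand. Akt2 (chr7:27591552-27640826), Gsk3b (chr16:38089001-38246084), and Cav3 (chr6:112459505-112472872) lie on the plus strand.

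Levels of the members were first placed in order by FPKM, a fragment count divided by transcript length and library size, summed over the transcripts of a gene, since this scale is per length. Slc2a4 was the highest in each of the 16 mice, with 115 to 152 FPKM and a median of 130 FPKM. It was followed by Akt2 (median 38.4 FPKM), Tbc1d4 (21.7 FPKM), Gsk3b (21.7 FPKM), Insr (20.5 FPKM), Pik3r1 (15.9 FPKM), Akt1 (17.5 FPKM), Irs2 (15.4 FPKM), Cav3 (14.3 FPKM), and Irs1 (7.98 FPKM), in the order of their means. Slc2a4 and Akt2 were the only neighbours in this order whose ranges over all mice did not overlap. Cav3 was above Irs1 in 16 of 16 mice and Akt2 above Tbc1d4 in 15 of 16, whereas Tbc1d4 was above Gsk3b in 7 of 16. Counts of a lncRNA row inside an Irs1 exon, described further on, are not part of the Irs1 level. The order also depends on the summing, which adds short and retained-intron transcripts on the same scale. Over the 16 mice, the transcript with most counts held 19.8 to 54.9% of the summed FPKM for Akt2 and 16.1 to 50.6% for Tbc1d4. It held 88.4 to 95.1% for Gsk3b and 59.0 to 74.1% for Insr. Whether Akt2 and Tbc1d4 rank above Gsk3b and Insr by single transcripts was not tested.

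The members also differed in how much they varied between mice of 1 group. The SD of log2 CPM within groups was 0.11 for Insr, which put it at the 8.0th percentile of all genes tested, and 0.14 for Akt1, 0.15 for Gsk3b, 0.16 for Slc2a4, and 0.17 for Akt2, all under the median of 0.25 over all genes. Cav3 (0.24) and Irs1 (0.26) were close to this median. Tbc1d4 (0.34), Irs2 (0.34), and Pik3r1 (0.53) varied more, and Pik3r1 was at the 83.7th percentile.

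**Figure D1:**
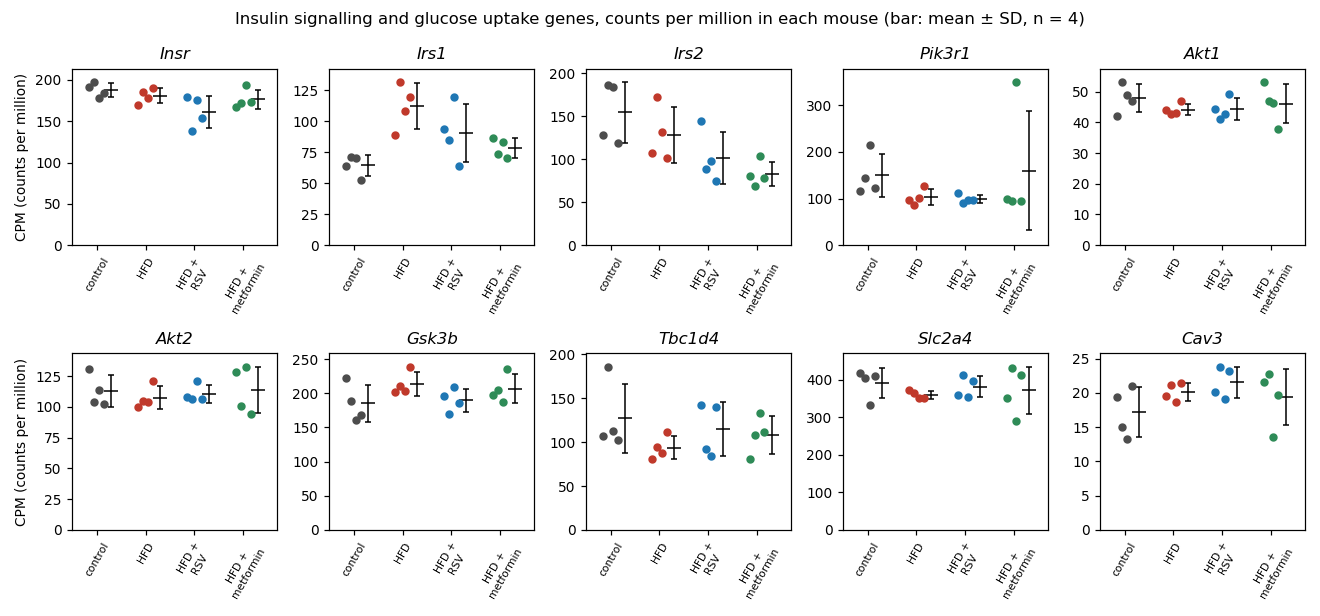
CPM of each of the 10 genes (vertical axes, starting at 0) in the 4 groups, with 1 point per mouse and a bar for the mean ± SD (n = 4). Irs1 is higher in all 4 HFD mice (89.1 to 132 CPM) than in all 4 control mice (52.8 to 71.2 CPM), and Pik3r1 has 1 HFD + metformin mouse at 351 CPM.

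The comparison of the HFD group with the control group asked which members differed with the diet. Irs1, the gene for the first receptor substrate, was higher in the HFD group, and none of the other 9 members passed the test. Irs1 stood at 64.0, 71.2, 70.3, and 52.8 CPM in control mice 1 to 4 and at 89.1, 132, 108, and 120 CPM in HFD mice 1 to 4. Every HFD mouse was above every control mouse. The mean rose from 64.6 ± 8.49 to 112 ± 18.4 CPM (SD, n = 4), a log2 fold change of 0.80 (SE 0.17) or 1.74-fold, with an adjusted p = 0.0347 in edgeR's quasi-likelihood test over 15364 genes. With 1 of 10 members called, the background was 2.43% of all genes called in either direction and 1.32% called higher, with 1.11% called lower. This background of 374 genes changed with single mice, and was 16 genes without control mouse 2 and 1588 without HFD + metformin mouse 3. An unadjusted p under 0.05 was found for Irs1 alone among the members and for 24.2% of all genes, and no member also had an absolute log2 fold change above 1, as 4.94% of all genes had. Groups did not overlap for 18.3% of all genes in this comparison.

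The Irs1 call was close to the threshold. Leaving out any 1 of the 4 HFD mice, or control mouse 2, 3, or 4, gave adjusted p values of 0.0542 to 0.0965 in edgeR with log2 fold changes of 0.71 to 0.90, and without control mouse 1 the adjusted p was 0.0358. Without the scaling of library sizes the log2 fold change was 0.65 with an adjusted p = 0.0818 in edgeR. The median log2 fold change was -3.54 over the 8 slow fibre markers, -1.92 over the 8 adipocyte markers, 0.48 over 8 fast fibre, 0.36 over 8 striated muscle, and -1.13 over 6 Schwann cell markers. None of these markers passed in edgeR, where adjusted p values of the slow fibre markers were 0.0715 to 0.142. An unadjusted p under 0.05 was found for 8 slow fibre, 4 adipocyte, and 3 Schwann cell markers, all lower. Lower at this threshold were also 2 of 6 endothelium markers and 1 of 6 macrophage markers. It was further met by 4 fast fibre and 2 striated muscle markers, all higher. The fast fibre markers did not all go 1 way. Of the 8, 6 had a positive log2 fold change, and Myh2 (-1.49) and Myh1 (-0.33) had a negative one without passing. The part of these marker differences in the Irs1 result was not tested. The summed level of the fast fibre markers was 61500 to 108000 CPM in the control group and 105000 to 114000 CPM in the HFD group. Control mouse 1 was at the level of the HFD mice in its slow fibre (103 CPM) and fast fibre (108000 CPM) marker sums. It had 64.0 CPM of Irs1, between the other control mice. This is 1 mouse, and whether Irs1 follows fibre type was not tested. Without the pair of mice with the highest adipocyte marker sums, the log2 fold change of Irs1 was 0.84 (adjusted p = 0.0360 in edgeR).

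Among the receptor and the other receptor substrate, Insr had 191, 198, 178, and 184 CPM in control mice and 170, 186, 178, and 190 CPM in HFD mice. These ranges overlapped, and the log2 fold change was -0.05 (SE 0.09). Irs2, the second receptor substrate, had 128, 186, 184, and 119 CPM in control mice and 107, 172, 131, and 101 CPM in HFD mice, with a log2 fold change of -0.27 (SE 0.23, adjusted p = 0.478 in edgeR). High and low mice occurred in both groups.

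Pik3r1, the regulatory subunit gene, had 117, 144, 215, and 122 CPM in control mice and 96.7, 86.1, 101, and 127 CPM in HFD mice. Control mouse 3 was the highest, and HFD mouse 4 was above control mice 1 and 4. The log2 fold change was -0.55 (SE 0.37, adjusted p = 0.377 in edgeR). None of the kinase genes passed, with Akt1 at 47.9 ± 4.65 CPM in the control group and 44.2 ± 1.91 CPM in the HFD group (log2 fold change -0.12, SE 0.10) and Akt2, the Akt form that is most tied to glucose uptake, at 113 ± 13.3 and 107 ± 9.46 CPM (log2 fold change -0.07, SE 0.12). Gsk3b had 185 ± 27.7 and 213 ± 17.3 CPM, with a log2 fold change of 0.21 (SE 0.11, adjusted p = 0.279 in edgeR), and the ranges of the groups overlapped for all of these kinases.

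Of the genes at the end of the pathway, Tbc1d4 had 107, 186, 113, and 102 CPM in control mice and 80.9, 94.7, 87.1, and 111 CPM in HFD mice. HFD mouse 4 was above control mice 1 and 4, and the log2 fold change was -0.44 (SE 0.22, adjusted p = 0.236 in edgeR). Slc2a4 had 419, 405, 334, and 410 CPM in control mice and 372, 365, 352, and 352 CPM in HFD mice, with control mouse 3 below all HFD mice and the other control mice above them. Its log2 fold change was -0.12 (SE 0.12, adjusted p = 0.557 in edgeR). This value depended on the scaling. With total counts and no scaling factor the log2 fold change of Slc2a4 was -0.26 (SE 0.08, adjusted p = 0.0872 in edgeR), and on the deposited FPKM scale, which has no scaling factor, the 4 HFD mice (115 to 128 FPKM) lay below the 4 control mice (136 to 152 FPKM). Groups did not overlap on the FPKM scale for 16.6% of all genes, with the HFD mice lower for 12.4%. Over all genes this change of scaling moved the median log2 fold change from -0.02 to -0.17. Cav3 had 19.4, 15, 13.3, and 21 CPM in control mice and 19.5, 21.1, 18.7, and 21.4 CPM in HFD mice, which overlapped (log2 fold change 0.24, SE 0.16, adjusted p = 0.387 in edgeR).

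**Figure D2:**
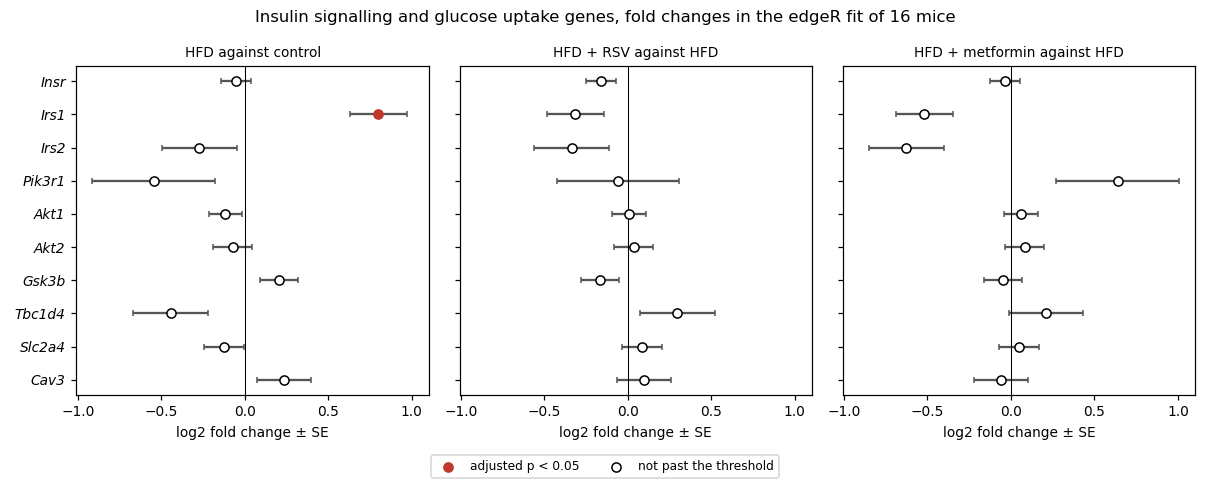
Log2 fold change ± SE (horizontal axes) of the 10 genes in 3 comparisons of 4 against 4 mice. Filled red marks an adjusted p under 0.05, which is Irs1 for HFD against control (0.80), and open points did not pass.

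Comparing HFD + RSV with HFD mice asked which members differed after RSV. None of the 10 members passed in edgeR, beside 0% of the 15364 genes tested, and none had an unadjusted p under 0.05, which 4.72% of all genes had. DESeq2 called 8 genes of the whole table and no member. Irs1 had 93.5, 84.7, 120, and 63.8 CPM in the HFD + RSV group. HFD + RSV mouse 4 was at the level of the control mice and mouse 3 was at that of the HFD mice. The mean was 90.4 ± 23.1 CPM, and the log2 fold change against the HFD group was -0.31 (SE 0.17, adjusted p = 0.999 in edgeR).

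Irs2 had 144, 88.5, 98.1, and 74.4 CPM in the HFD + RSV group, with a log2 fold change of -0.34 (SE 0.23). Insr had 179, 138, 176, and 154 CPM, with mice 2 and 4 below every HFD mouse and mice 1 and 3 among them, and a log2 fold change of -0.16 (SE 0.09, adjusted p = 0.999 in edgeR). The log2 fold changes of the remaining members lay between -0.17 (Gsk3b, SE 0.11) and 0.30 (Tbc1d4, SE 0.22). Slc2a4 had 382 ± 28.3 CPM after RSV and 360 ± 10.3 CPM in the HFD group (log2 fold change 0.08, SE 0.12), and Cav3 had 21.6 ± 2.32 and 20.2 ± 1.3 CPM (log2 fold change 0.10, SE 0.16). Ranges of the groups overlapped for all 10 members, and did not for 4.2% of all genes.

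In the comparison of the HFD + metformin group with the HFD group, none of the 10 members passed in edgeR or DESeq2, and 2 of all genes did in edgeR (0.013%). The receptor substrates had the smallest p values. Irs1 had 86.7, 73.4, 83.3, and 70.4 CPM after metformin, and every value was below every HFD mouse. The log2 fold change was -0.52 (SE 0.17, adjusted p = 0.600 in edgeR), and 3.72% of all genes had groups that did not overlap. Irs2 had 80.7, 68.9, 103, and 78.0 CPM, of which the value of mouse 3 was above the lowest HFD mouse. Its log2 fold change was -0.63 (SE 0.23, adjusted p = 0.607 in edgeR). An unadjusted p under 0.05 was found for these 2 members, both lower, and for 8.02% of all genes, 2.79% lower.

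Pik3r1 had 98.9, 95.1, 351, and 94.2 CPM after metformin, so that the mean of 160 ± 127 CPM came from mouse 3. The log2 fold change against the HFD group was 0.64 (SE 0.37, adjusted p = 0.653 in edgeR) and was -0.10 without this mouse. HFD + metformin mouse 3 and control mouse 3, which had the most Pik3r1 within their groups, also had the highest adipocyte marker sums of all mice (4470 and 5120 CPM). Without both mice the log2 fold change of Pik3r1 between the HFD and control groups was -0.32 (adjusted p = 0.165 in edgeR). Both mice also had the lowest fast fibre marker sums of all mice (62300 and 61500 CPM) and the lowest striated muscle marker sums (153000 and 143000 CPM). Their library scaling factors were the highest (1.186 and 1.172). These traits cannot be told apart in these mice, and the part of any of them in the Pik3r1 values was not tested. HFD + metformin mouse 3 also had the lowest Slc2a4 of all mice (291 CPM), and control mouse 3 the second lowest (334 CPM). Their Cav3 values of 13.6 and 13.3 CPM were the lowest of all mice. The other members had log2 fold changes between -0.06 and 0.21 in this comparison.

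**Figure D3:**
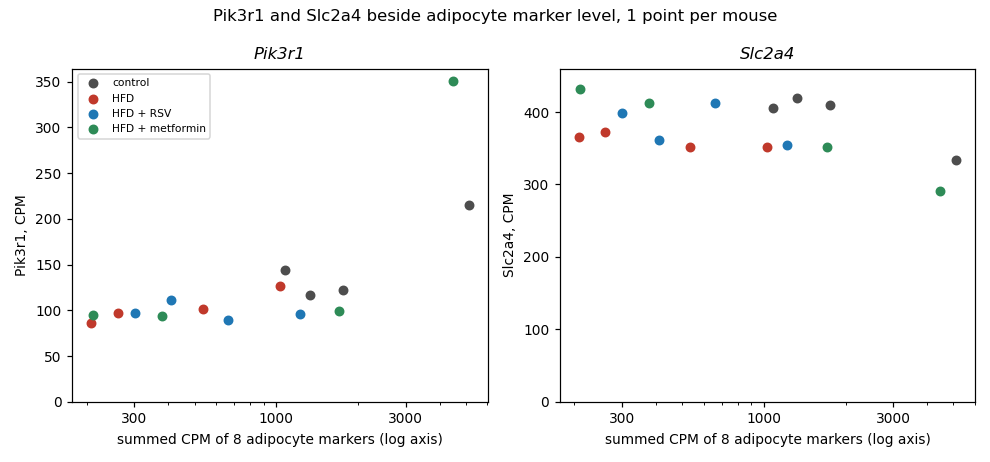
Pik3r1 and Slc2a4 in CPM (vertical axes) against the summed CPM of 8 adipocyte markers (horizontal log axes), 1 point per mouse, coloured by group. Control mouse 3 and HFD + metformin mouse 3 lie to the right, with the highest Pik3r1 (215 and 351 CPM) and the lowest Slc2a4 (334 and 291 CPM).

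The remaining comparisons share their mice with those above. Between the HFD + RSV and HFD + metformin groups no member was called by edgeR or DESeq2, beside 0% of all genes in edgeR and 10 genes in DESeq2. No member had an unadjusted p under 0.05 there, and the log2 fold change furthest from 0 was -0.70 for Pik3r1 (SE 0.37), which was 0.04 (SE 0.18) without HFD + metformin mouse 3. For HFD + RSV against control no member was called by edgeR, beside 1 of all genes (0.00651%). Irs1 had a log2 fold change of 0.49 (SE 0.17, adjusted p = 0.212 in edgeR) and Irs2 of -0.61 (SE 0.23, adjusted p = 0.234 in edgeR) in that comparison. These and Insr (log2 fold change -0.22, SE 0.09) had an unadjusted p under 0.05, as had 15.8% of all genes. Pik3r1 was lower in each HFD + RSV mouse than in each control mouse (11.3% of all genes did not overlap) and did not pass. For HFD + metformin against control no member was called by edgeR, beside 0% of all genes. Irs2 was nearest to the threshold there, with 82.7 ± 14.6 CPM after metformin and 154 ± 35.9 CPM in the control group. All 4 metformin mice were below all 4 control mice, with a log2 fold change of -0.90 (SE 0.23, adjusted p = 0.218 in edgeR), and groups did not overlap for 3.53% of all genes. It was the only member with an unadjusted p under 0.05, beside 9.5% of all genes. DESeq2 gave this difference an adjusted p = 0.0256, with 141 genes called in all.

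For 3 members the lncRNA table held a row with many counts that lies inside 1 exon of the gene. The row NONMMUT001686.2 (chr1:82233107-82237090, 3984 bases) lies inside the last exon of Irs1, in its 3′ UTR beyond the coding part, and its 31109 counts over all mice were 96.9% of those of the Irs1 row. Its level was 446, 413, 421, and 395 CPM of the lncRNA table in control mice and 671, 921, 662, and 536 CPM in HFD mice. All HFD mice were above all control mice, as for the Irs1 row. The share of lncRNA rows whose groups did not overlap was not computed, so that this may be common among them. The log2 fold change was 0.74 (SE 0.18, adjusted p = 0.0527 in edgeR over 17599 lncRNA rows, of which 1.61% were called). Against the HFD group it was -0.06 (SE 0.18) in the HFD + RSV group and -0.52 (SE 0.18, adjusted p = 0.660 in edgeR) in the HFD + metformin group, where 0.0114% and 0% of lncRNA rows were called. The lncRNA table gives no strand, and it was not tested whether these fragments came from Irs1 mRNA or from another transcript.

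With the counts of lncRNA rows that lie inside 1 exon of 1 gene added to that gene, Irs1 had a log2 fold change of 0.72 (SE 0.15, adjusted p = 0.0315 in edgeR) for HFD against control. The difference for HFD + RSV against HFD was then -0.16 (SE 0.15), about the size of its error. NONMMUT064389.2 (chr8:3151342-3154852) lies inside an exon of Insr and held 48.2% as many counts as the Insr row, and its log2 fold change between HFD and control groups was 0.01 (SE 0.11). NONMMUT026547.2 (chr16:38244500-38246079), inside the 3′ UTR of Gsk3b, held 16.3% as many counts as the Gsk3b row and stood at 182 to 275 CPM of the lncRNA table in 15 mice and at 46.5 CPM in HFD mouse 4. That mouse had the highest Gsk3b row of all mice (239 CPM). With these counts added, Gsk3b had a log2 fold change of 0.15 (SE 0.11) between HFD and control groups. The largest such row of Irs2 held 0.04% and that of Akt2 0.20% of the gene's counts, and the other 5 members had none.

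**Figure D4:**
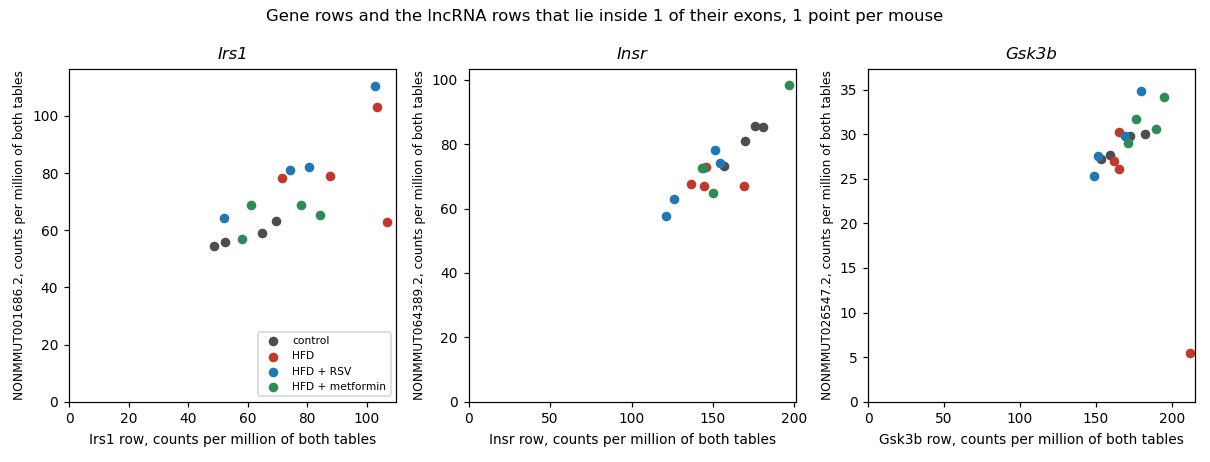
Counts of the lncRNA row inside 1 exon of Irs1, Insr, and Gsk3b (vertical axes) against counts of the gene's own row (horizontal axes), both as CPM over both tables, 1 point per mouse, coloured by group. In the third panel HFD mouse 4 lies apart, with few counts in the lncRNA row and the most in the Gsk3b row.

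At the level of single transcripts, 44 of the 59 member transcripts were tested and none was called by edgeR in the 3 main comparisons, while DESeq2 called that of Irs1 for HFD against control. The background was 0.0157% of 44573 transcripts for HFD against control, 0% for HFD + RSV against HFD, and 0.00449% for HFD + metformin against HFD. In simulated data, this fit called 0% of transcripts changed by an absolute log2 fold change of 1 and 9.09% of those changed by 2. The changed transcripts were picked at random from all those tested, so that these rates need not hold for transcripts with many counts. For HFD against control, the SE of each member's most abundant transcript lay between 0.089 (Insr) and 0.521 (Tbc1d4). The lack of calls in these comparisons therefore does not show that member transcripts did not differ. At an unadjusted p under 0.05 there were 6, 2, and 4 member transcripts in these comparisons, beside 13.1, 5.02, and 6.07% of all transcripts. With an absolute log2 fold change above 1 as well, there was 1 in the first (an Akt2 transcript, ENSMUST00000143499, beside 5.12%) and 1 in the second (a Pik3r1 transcript, ENSMUST00000185701, beside 2.68%). Both had mean levels under 1 CPM. Irs1, Irs2, and Cav3 have 1 transcript each. The single Irs1 transcript, ENSMUST00000069799, had a log2 fold change of 0.82 (SE 0.18) between HFD and control groups and an adjusted p of 0.130 in edgeR over transcripts. A single transcript held most counts of Insr (ENSMUST00000091291, 90.0%), Akt1 (ENSMUST00000001780, 93.1%), Gsk3b (ENSMUST00000023507, 97.9%), Pik3r1 (ENSMUST00000055518, 87.7%), and Slc2a4 (ENSMUST00000018710, 77.2%), whose second transcript with a retained intron, ENSMUST00000178809, held 17.1%.

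Akt2 and Tbc1d4 were split over more transcripts. The leading Akt2 transcript, ENSMUST00000108344, held 57, 61.5, 46.8, and 57.6% of the gene's counts in control mice and 80.2, 69.6, 65.7, and 60.0% in HFD mice. Only HFD mouse 4 was within the control range. The means of 55.7 and 68.9% differed with p = 0.0571 in an exact two-sided permutation test (adjusted p = 0.400 over 21 such tests), where 4 against 4 mice cannot go below 0.0286. Its second coding transcript, ENSMUST00000051356, held 11.5% over all mice. Tbc1d4 counts were shared mainly by ENSMUST00000161304, a retained-intron form (33.5%), the coding ENSMUST00000161991 (31.4%), and the retained-intron ENSMUST00000159668 (12.8%). The share of the first ranged from 13.6 to 53.3% between mice, so that the Tbc1d4 sum mixed coding and non-coding forms in changing proportion. The share of the leading Gsk3b transcript for HFD + RSV against HFD (98.4 and 97.7%) and that of Slc2a4 for HFD + metformin against HFD (74.1 and 78.8%) had the same p = 0.0571 in this exact test (adjusted p = 0.400). As shares of summed FPKM, the Slc2a4 means were 71.5 and 76.9% without overlap, with p = 0.0286 in the exact test (adjusted p = 0.400). The Akt2 and Gsk3b results kept p = 0.0571 in the exact test on that scale. With 4 against 4 mice and 21 tests, a single share could not have passed the adjustment, so that the lack of calls says nothing about whether shares differed.

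Beyond the members, 104 other genes of the pathway were listed by role, of which 102 were in the table and were tested. The lists were chosen with earlier results of these data known. They include Socs1, which the study had reported as higher in HFD mice, so that counts of called genes are a description only. Between the HFD and control groups 3 of them were higher and 1 was lower in edgeR, which is 4 of 102 beside 2.43% of all genes, and the median log2 fold change of the 102 genes was 0.03 against -0.02 over all genes. Mef2c, a transcription factor of the family that binds the Slc2a4 promoter, had 136, 180, 82.0, and 181 CPM in control mice and 421, 526, 541, and 340 CPM in HFD mice, a log2 fold change of 1.66 (SE 0.27, adjusted p = 0.0149 in edgeR). The HFD mice were all above the control mice, while Slc2a4 itself did not pass. Eif4ebp1, a repressor of translation downstream of mTOR, fell from 69.2 ± 12.0 to 29.9 ± 3.18 CPM without overlap (log2 fold change -1.21, SE 0.18, adjusted p = 0.0109 in edgeR).

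Among receptor adaptors, Sh2b1, which binds the activated receptor, rose from 35 ± 2.78 to 51.1 ± 4.32 CPM (log2 fold change 0.55, SE 0.10, adjusted p = 0.0202 in edgeR). Among inhibitors of the receptor and its substrates, Socs1, a suppressor of cytokine signalling that binds the receptor and promotes degradation of its substrates, had 0.674, 0.708, 0.430, and 0.364 CPM in control mice and 1.3, 1.46, 3.36, and 6.57 CPM in HFD mice. The groups did not overlap, and HFD mouse 4 was the highest. The log2 fold change of Socs1 was 2.52 (SE 0.52, adjusted p = 0.0336 in edgeR). No gene of the lists for PI3K subunits (7 genes), lipid and Akt phosphatases (8), the glycogen branch and FoxO (9), GLUT4 traffic (21), or caveolae (8) was called by edgeR. The part of the slow fibre and adipocyte marker differences in the called genes was not tested.

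None of the 102 pathway genes passed in edgeR when either treated group was compared with HFD mice, whereas DESeq2 called Socs1 in both comparisons and Mef2c after RSV. The smallest p values after RSV were those of Socs1 (log2 fold change -2.37, SE 0.51), Mef2c (-1.17, SE 0.27), Socs3 (-1.48, SE 0.39), and Prkcz (-0.51, SE 0.19), all with an adjusted p of 0.999 in edgeR. Socs1 had 0.537, 0.867, 0.577, and 0.447 CPM after RSV, all below the HFD mice. After metformin the smallest p values were those of Socs1 (log2 fold change -2.11, SE 0.51, adjusted p = 0.440 in edgeR), Socs3 (-1.44), Eif4ebp1 (0.65), and Rab8a (0.39). Socs1 levels of about 1 CPM rest on few counts, and these lower values after treatment did not pass in edgeR. The study reported Socs1 as lower after RSV in this sequencing by its own criteria. It also reported this by RT-qPCR and, for the protein, by western blot, which were not examined here.

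**Figure D5:**
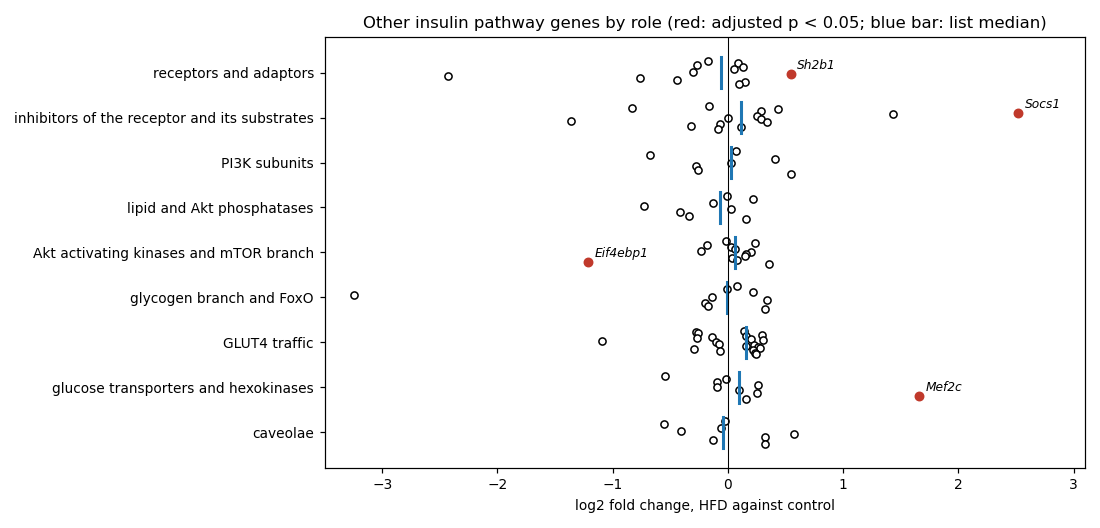
Log2 fold change between the HFD and control groups (horizontal axis) of 102 other pathway genes, in rows by role, with a blue bar at each list's median. The red points with names are the 4 genes with an adjusted p under 0.05, of which Socs1, Mef2c, and Sh2b1 lie to the right of 0 and Eif4ebp1 to the left.

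The genes whose log2 CPM over the 16 mice was most like that of each member, out of all genes tested, are given as a description. They were Plekhm2 and Med17 for Insr (Pearson r 0.89 and 0.88), Fgf18 and Snph for Irs1 (0.83 and 0.82), and Hspa4l and Ccdc3 for Irs2 (0.83 and 0.81). For Pik3r1 they were Fam208a and Itpr2 (0.95 and 0.95), for Slc2a4 Map2k3 and Ank3 (0.90 and 0.89), and for Cav3 Dvl1 and Gm2253 (0.95 and 0.93). The best match was Nedd4 for Akt2 (0.84), Abtb1 for Gsk3b (0.89), Spsb4 for Akt1 (0.81), and Gstm7 for Tbc1d4 (0.81). Without the differences between group means, r fell to 0.55 for Irs1 with Fgf18 and was 0.95 for Pik3r1 with Fam208a. The 16 mice share their library preparation and their groups. The highest 2 Pik3r1 values came from the mice with the most adipocyte markers and the lowest striated muscle marker sums.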

How the data were processed

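RNA of skeletal muscle of 16 mice, 4 per group, was analysed. According to the study's methods, paired-end libraries depleted of ribosomal RNA were sequenced and fragments were counted with StringTie. The submitters' processing notes also name fastp and HISAT2. The authors deposited estimated counts per transcript as whole numbers, without normalization, in an mRNA and a lncRNA table. The authors also deposited FPKM values, which equalled the count divided by transcript length and by the total count of both tables within 0.0104%. Coordinates of 97.35% of mRNA transcripts, and of all member transcripts, equalled GENCODE M21 (GRCm38). In the mRNA table, 4 transcripts split over lines were joined. The mRNA totals were 17625909 to 29761026 counts per mouse, and the number of mice sets the precision of the comparisons.

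Counts were summed per gene name and tested in edgeR 4.0.16 (R 4.3.3, TMM, filterByExpr with a minimum count of 10 and total of 15, robust quasi-likelihood fit of all 16 mice, Benjamini-Hochberg adjustment over all features, called under 0.05). The SE is the absolute log2 fold change divided by the square root of F. The fits were tested on simulated data with known changes in the HFD group. The gene fit called 2.99% of changes with an absolute log2 fold change of 0.5, 55.2% at 1, and 90.9% at 2. The transcript fit called 0, 0, and 9.09% of them. A difference that did not pass is thus not shown to be absent. Transcript shares were compared with exact permutation tests (SciPy 1.17.1). Alternatives were DESeq2 1.42.0, other scaling and filters, fewer mice, the criteria of the study, and, added after seeing the data, lncRNA counts inside exons, the edgeR fit of the lncRNA table, and leaving out the mice with most adipocyte markers. All members were named, and of the pathway lists up to 4 called genes in each direction or, where fewer were called, the 4 with the smallest p, with Socs1 always given. The members and lists were chosen with earlier results of these data known.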

Additional observations from a re-analysis of the deposited data

Results flagged for a closer look

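In 5 of 68 groups of 4 mice, 1 mouse stood apart from the other 3 by a gap that was a large part of the group's whole range (Dixon's criterion, which chance meets in about 1 in 20 groups). The gap was 0.963 of the range for Pik3r1 in HFD + metformin mouse 3, at 351 CPM against 94.2 to 98.9 CPM. It was 0.859 for Akt2 in HFD + RSV mouse 3 (121 CPM against 106 to 108 CPM), 0.850 for Slc2a4 in control mouse 3 (334 CPM against 405 to 419 CPM), and 0.831 for Tbc1d4 in control mouse 2 (186 CPM against 102 to 113 CPM). It was 0.853 for the share of the leading Pik3r1 transcript in HFD mouse 4 (80% against 86.4 to 87.5%). The gaps for levels were taken on log2 CPM.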

How the results depend on the processing

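No paired analysis was possible because the labels number mice without tying a number to a shared litter, cage, or day across groups, and the replicate numbers used here follow accession order. The number of members called between the HFD and control groups was 1 and became 0 with total counts and no scaling factor and with the study's criteria (unadjusted p under 0.05 and absolute log2 fold change above 1). It ranged from 0 to 1 when 1 mouse was left out, and was 0 without any HFD mouse and without control mouse 2, 3, or 4. The log2 fold change of Irs1 stayed between 0.65 and 0.90 and its call was kept in 17 of 26 alternatives, DESeq2 (adjusted p = 0.000666) among them. At an unadjusted p under 0.05, 2 members passed for metformin against HFD, 3 for RSV against control, and 1 for metformin against control, where DESeq2 also called 1 (Irs2).

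Of the pathway genes, 4 were called between the HFD and control groups. This number was 13 in DESeq2, 7 in a fit of the 8 mice compared, 16 in a fit of 12 mice without metformin, 8 with the study's criteria, and 30 at an unadjusted p under 0.05. Leaving out 1 mouse gave 2 to 14, with 2 without control mouse 2, control mouse 3, or HFD mouse 4, 7 without control mouse 1, and 14 without HFD + metformin mouse 3. For RSV against HFD the number of pathway genes was 0 and became 2 in DESeq2 (Mef2c and Socs1), 3 with the study's criteria, and 8 unadjusted. For metformin against HFD it was 0 and became 1 in DESeq2 (Socs1), 3 with the study's criteria, and 15 unadjusted. Member transcripts called numbered 0 in each comparison. For HFD against control they became 1 in DESeq2 (Irs1), 1 with the study's criteria, and 6 unadjusted. For RSV against HFD they became 1 with the study's criteria and 2 unadjusted, and for metformin against HFD 4 unadjusted.

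Over all genes, 374 were called between the HFD and control groups (203 higher and 171 lower). The number was 212 without scaling (90 higher and 122 lower), 158 without a filter on low counts, 1544 in DESeq2, 998 in the 8 mice compared, and 1616 in the 12 mice without metformin. Leaving out 1 mouse gave 16 without control mouse 2, 29 without control mouse 3, 120 without control mouse 4, and 773 without control mouse 1. It gave 31, 37, 57, and 100 without HFD mice 1 to 4, and 180, 208, 197, and 169 without HFD + RSV mice 1 to 4. Without HFD + metformin mice 1 to 4 it was 175, 330, 1588, and 644. The causes of these differences were not tested.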
